A study of Mus musculus with 12 samples.

Results

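The genes described here carry out MHC class I antigen presentation: the transactivator Nlrc5, the light chain B2m, the heavy chains H2-K1 and H2-D1, the peptide transport and loading genes Tap1, Tap2 and Tapbp, the immunoproteasome subunits Psmb8 and Psmb10, and the peptide-trimming enzyme Erap1. They were chosen by name as a pathway, and they are 10 of the 31332 genes in the count table. All 10 were among the 17268 genes with enough counts to be tested. Thymic epithelial cells of C57BL6/J mice aged 2 months were sorted and their RNA was sequenced in 12 libraries. Every library, controls included, came from mice with floxed alleles of LXRalpha and LXRbeta, a pair of oxysterol-activated nuclear receptors. The control groups had these alleles alone, and the Cre groups also had FoxN1-Cre, a recombinase under the control of a gene of thymic epithelium. Each group had 3 libraries: 1 to 3 are control mTEC (medullary cells), 4 to 6 Cre mTEC, 7 to 9 control cTEC (cortical cells) and 10 to 12 Cre cTEC. The design asks how the loss of LXR in thymic epithelium alters RNA levels in each cell type.

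Class I molecules show short peptides from inside the cell to CD8 T cells. Proteasomes cut proteins into peptides, the TAP transporter carries them into the endoplasmic reticulum, tapasin holds the transporter beside an empty heavy chain with its light chain, and ERAP1 trims peptides to fit. NLRC5 binds no DNA itself and acts through a complex on the promoters of class I genes. In the thymus, cTEC use class I peptides to select CD8 T cells, partly through a cortical proteasome with the subunit PSMB11, and mTEC show class I peptides to test tolerance.

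The promoters of the light chain and of both heavy chains are shown first because NLRC5 is known to act at such promoters and because Nlrc5 RNA varied more between the groups than that of the other 9 genes. Each line gives the 190 bases before the start of transcription, from RefSeq on GRCm38.p6, a later build than that of the counts. B2m is at chr2:122147497-122147686 (plus strand), H2-K1 at chr17:34000334-34000523 (minus strand) and H2-D1 at chr17:35262904-35263093 (plus strand). Capitals mark matches on either strand to ATTGG (the core of the Y box), TGACG (the core of the X2 box), GGGANTNCC (a kappa B motif) or GAAANNGAA (the core of an interferon-stimulated element).
B2m: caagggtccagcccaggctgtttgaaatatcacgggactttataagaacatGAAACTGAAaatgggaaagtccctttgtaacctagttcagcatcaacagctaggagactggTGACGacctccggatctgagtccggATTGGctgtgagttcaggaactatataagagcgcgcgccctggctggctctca
H2-K1: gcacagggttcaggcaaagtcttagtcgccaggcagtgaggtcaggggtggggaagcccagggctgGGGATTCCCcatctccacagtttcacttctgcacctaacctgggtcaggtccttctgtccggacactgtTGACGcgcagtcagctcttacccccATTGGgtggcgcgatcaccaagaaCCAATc
H2-D1: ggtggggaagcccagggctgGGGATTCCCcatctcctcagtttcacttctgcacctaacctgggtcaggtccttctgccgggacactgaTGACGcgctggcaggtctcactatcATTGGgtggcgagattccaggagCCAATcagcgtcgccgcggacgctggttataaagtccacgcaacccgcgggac
In all 3 sequences TGACG begins 25 bases before ATTGG on the strand of the gene. The distances from the start differ: ATTGG begins 53 bases before it in B2m, 30 in H2-K1 and 76 in H2-D1. H2-K1 and H2-D1 also hold a kappa B match and a second ATTGG on the opposite strand, and B2m holds a GAAANNGAA match. Among 32851 RefSeq promoters with 250 bases before the start, 33.8% held ATTGG, 17.8% TGACG, 3.36% the kappa B motif and 7.13% GAAANNGAA on either strand. The pair at this spacing stood in 30 promoters (0.0913%) of 26 genes, a spacing looked up after the sequences were seen. Those genes include B2m, H2-K1, H2-D1 and H2-M3, a class I gene outside the group. The tables held promoters for 8 of the 10 genes. Tap1, Tapbp, Psmb8, Psmb10 and Erap1 did not hold the pair at this spacing. These matches describe letters in a window and do not show that a factor binds.

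Total counts ran from 4804697 to 11159013 per library, with the fewest in Cre cTEC library 11. Levels are CPM, a gene's share of the counts in a library, written as counts per 1000000 after scaling between libraries, and a fold change is a log2 difference with its standard error (SE). A gene was called where its adjusted p from edgeR's quasi-likelihood test was under 0.05. Nr1h2, which encodes LXRbeta, was at 157 to 191 CPM in control cTEC and 102 to 123 CPM in Cre cTEC, and at 109 to 131 and 70.2 to 95.7 CPM in control and Cre mTEC, lower in Cre by log2 fold changes of -0.58 and -0.63 (adjusted p = 0.00566 and 0.0158). The mTEC call was lost when library 2, 3 or 5 was left out (adjusted p = 0.0606 to 0.131). Nr1h3, which encodes LXRalpha, stayed between 5.83 and 10.7 CPM in all libraries. Reads outside the deleted part still count, so these levels do not measure how far the alleles recombined. The sorted populations carried their markers: in control libraries all 9 cTEC markers were lower in mTEC, and all 11 mTEC markers that could be tested were higher, with Aire at 793 to 932 CPM in mTEC and 9.88 to 10.8 CPM in cTEC. Ccl21a, another mTEC marker, was at 0 in 10 libraries and at most 0.300 CPM in the others. Whether its RNA was absent or its reads were lost in counting cannot be told from these counts. Whether the libraries of a group came from separate animals is not stated in the labels, so p-values measure the spread between these libraries.

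In Cre cTEC, 2 of the 10 genes rose, Nlrc5 and Psmb10, and none fell, against 5.62% of all genes tested that rose and 3.38% that fell. In Cre mTEC none of the 10 was called in either direction, against 2.07% of all genes. None of them reached an unadjusted p under 0.05 there with edgeR, and DESeq2 and limma voom, with or without quality weights for the libraries, called 0 as well. Over all 17268 genes there, 2528 had an unadjusted p under 0.05 with edgeR. DESeq2 called 599 of all genes, and limma voom 1672 with weights and 630 without. The difference between the cTEC and mTEC effects was called for 1 gene, Nlrc5, against 4.01% of all genes. Between the cell types genes were called in both directions, and the count higher in mTEC was near the share of all genes. In control libraries 3 were higher in mTEC than in cTEC (Nlrc5, B2m and H2-K1) and 1 was lower (Erap1), against 29.3% and 30% of all genes. In Cre libraries the same 3 were higher and 3 were lower (Erap1, Psmb10 and Tap2), against 25.1% and 24.5%. The median log2 fold change of the 10 genes was 0.11 in Cre cTEC and -0.08 in Cre mTEC, beside -0.02 and 0.01 for all genes tested, and 0.20 for mTEC over cTEC in controls, beside -0.05. The comparisons of genotype and of cell type share libraries, so their values are given side by side and were not correlated.

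**Figure D1:**
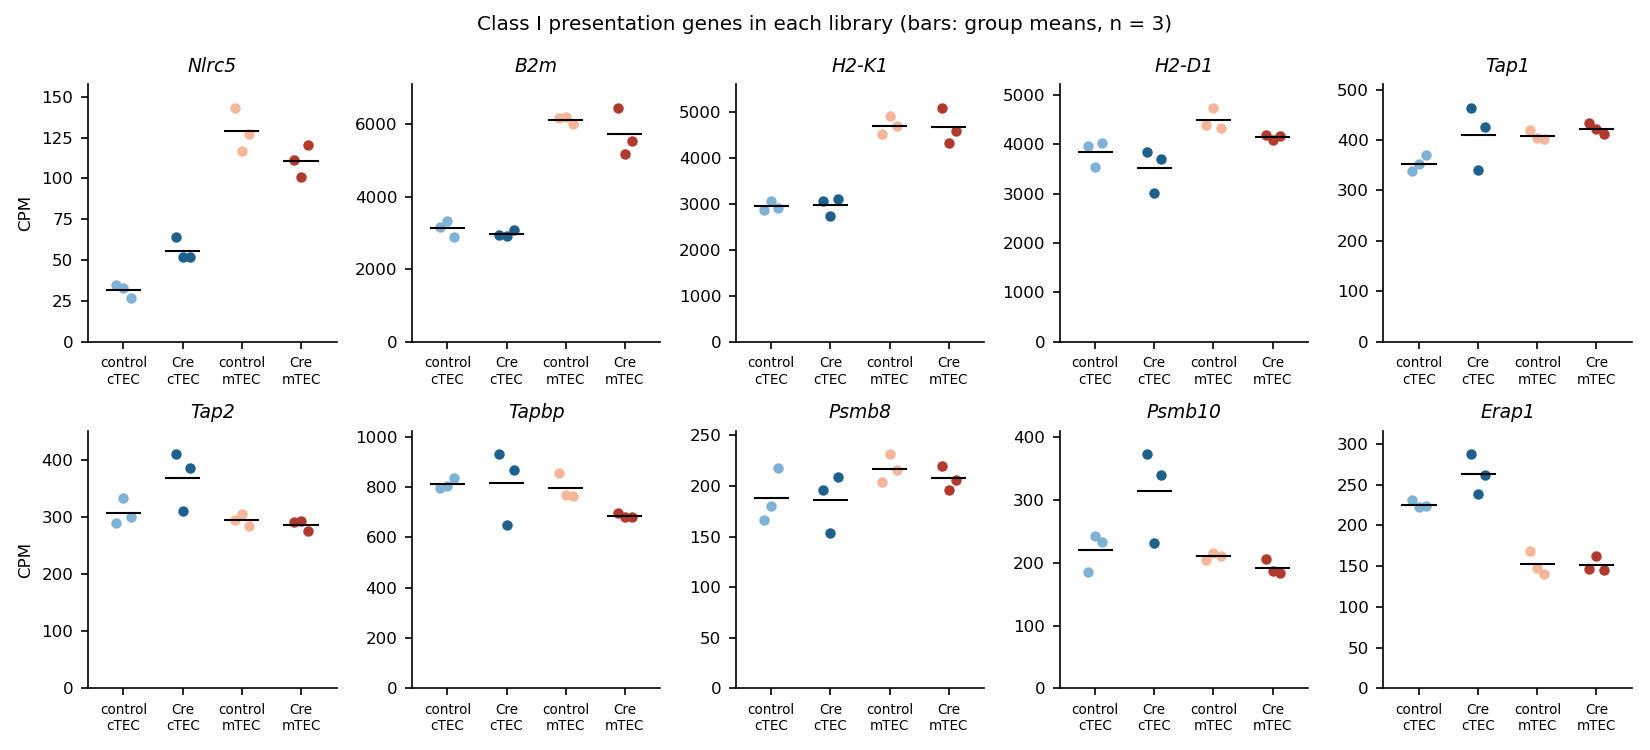
CPM of each gene in the 12 libraries, on linear axes from 0; each point is 1 library and each bar the mean of 3. Nlrc5 separates all 4 groups except control from Cre mTEC, B2m and H2-K1 separate mTEC from cTEC, and Erap1 is lowest in mTEC.

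The levels per transcript length spread over about 3 powers of 10. CPM was divided by the length of the longest annotated transcript, in kilobases (kb), to compare genes with each other. B2m stood highest in every group, at 3643 ± 245 CPM per kb in control cTEC and 7126 ± 126 in control mTEC (SD, n = 3). The heavy chains came next, at 1574 ± 52.4 for H2-K1 and 1829 ± 127 for H2-D1 in control cTEC, and 2506 ± 103 and 2134 ± 104 in control mTEC. Tapbp followed at 280 ± 6.83 and Psmb10 at 168 ± 23.8 CPM per kb in control cTEC. The ranges of Psmb8 (98.8 ± 13.8), Tap1 (90.3 ± 4.19) and Tap2 (89.4 ± 6.61) overlapped there. Erap1, at 40.0 ± 0.789, and Nlrc5, at 4.15 ± 0.529, were lowest, and Nlrc5 was the lowest of the 10 in all 4 groups. The light chain and heavy chains thus made up the top of the order and their transactivator the bottom.

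**Figure D2:**
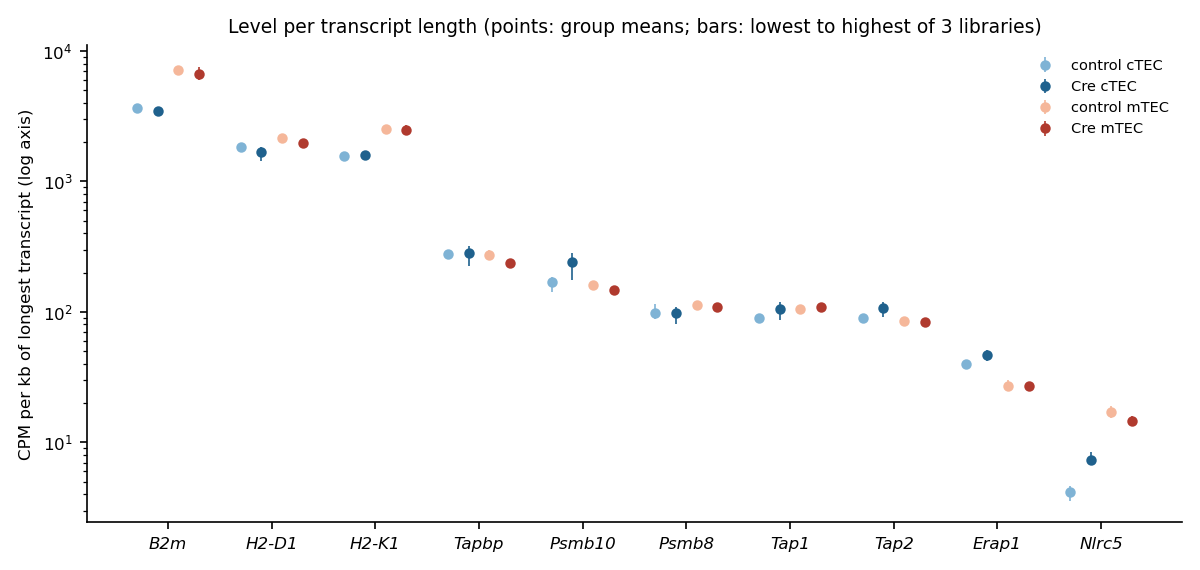
CPM per kb of the longest transcript, on a log axis, in order of the control cTEC level; points are group means and bars run from the lowest to the highest of 3 libraries. B2m, H2-D1 and H2-K1 average at least 1574 CPM per kb in every group and Nlrc5 at most 17.0.

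Nlrc5, a NOD-like receptor family protein that raises transcription of class I genes, had 34.8, 32.7 and 27.0 CPM in control cTEC, and 64.1, 51.7 and 51.6 CPM in the Cre cTEC libraries. All 3 Cre libraries lay above all 3 controls, and the log2 fold change was 0.83 (SE 0.13, adjusted p = 0.000387), a 1.78-fold higher level. These values rest on 190 to 202 reads per control library and 268 to 575 per Cre library. In bulk RNA a change in the number of cells of a kind and a change in RNA per cell cannot be told apart. In control mTEC, Nlrc5 was at 143, 117 and 127 CPM, and in Cre mTEC at 111, 101 and 120 CPM. Those groups overlapped, and the log2 fold change of -0.22 (with SE 0.12 and adjusted p = 0.42) did not pass, with a 95% interval of -0.47 to 0.03. The cTEC effect exceeded the mTEC effect by 1.05 (SE 0.18, adjusted p = 0.00263). Nlrc5 was higher in mTEC than in cTEC by 2.04 (SE 0.13, adjusted p = 1.07e-10) in controls and by 0.98 (SE 0.12, adjusted p = 1.9e-06) in Cre libraries. The calls for Nlrc5 held under every alternative run, with cTEC values from 0.72 to 0.92.

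Nlrc5 is an mTEC-high gene, and the mTEC markers in the cTEC libraries moved in both directions. Summed over 12 mTEC markers, the level was 2949 to 3118 CPM in control cTEC, 1877 to 2127 CPM in Cre cTEC and 7985 to 8291 CPM in control mTEC. Krt5, Krt14 and Epcam made up most of these sums. In control and Cre cTEC, Krt5 was at 1360 to 1506 and 774 to 935 CPM, and Krt14 at 862 to 1042 and 427 to 442 CPM. Epcam overlapped there, at 486 to 617 and 525 to 606 CPM. Aire, the regulator that defines mature mTEC, was at 2.90, 9.46 and 4.81 CPM in Cre cTEC, below each of the controls. Of the 11 mTEC markers tested, Tnfrsf11a, Cd40 and Fezf2 rose in Cre cTEC (log2 fold changes 0.83, 1.02 and 0.76), Krt14 and Krt5 fell (-1.15 and -0.79), and 6 did not pass. The summed levels of blood cell markers overlapped between the genotypes in cTEC: 13 thymocyte markers summed to 176 to 288 CPM in controls and 198 to 242 CPM in Cre, and 12 macrophage and dendritic cell markers to 60.8 to 78.5 and 59.9 to 82.8 CPM. In control mTEC the latter summed to 336 to 417 CPM, of which Lyz2 made up 207 to 281 CPM and Zbtb46 71.1 to 77.8 CPM. Of the 11 macrophage and dendritic cell markers tested, Zbtb46, a transcription factor of dendritic cells, rose in Cre cTEC, from 12.1 to 14.7 CPM in controls to 17.2 to 22.6 CPM, without overlap (log2 fold change 0.60, adjusted p = 0.00757). That call was lost without library 9 (adjusted p = 0.0546). Like Nlrc5, Zbtb46 was higher in control mTEC than in control cTEC, by 2.51, and the other 10 did not pass in Cre cTEC. Fibroblast markers summed to 2509 to 2901 CPM in control cTEC and 1170 to 1653 CPM in Cre cTEC, with Dcn, a matrix proteoglycan, the largest part. Of the 7, Dcn and Lum fell (-1.03 and -1.27), and Col3a1, a collagen chain, rose (0.82, adjusted p = 0.0198) from 106 to 140 CPM to 121 to 261 CPM, with overlap. The Col3a1 call was lost with the robust fit, with only the cTEC libraries and without library 7, 8, 11 or 12 (adjusted p at most 0.108). Erythroid markers summed to 3.44 to 8.53 CPM in control cTEC and 6.85 to 65.2 CPM in Cre cTEC, and B cell markers to 20.8 to 72.2 and 25.9 to 30.6 CPM. Endothelial markers summed to 16.4 to 31.4 CPM in control cTEC and 11.6 to 19.1 CPM in Cre cTEC. Of the 5 endothelial markers tested, Plvap fell (-1.61, adjusted p = 0.00486 with edgeR) and 4 did not pass. The Plvap call was lost without library 9 (adjusted p = 0.0503). The part of any of these populations in the Nlrc5 values was not tested.

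The genes whose pattern over the 12 libraries lay nearest to Nlrc5 were Celsr1, Nfkb2, Etv6 and Dnajc6. Likeness was measured as the root mean square difference of centred log2 CPM, among 12342 genes with a mean of at least 5 CPM, and came to 0.10, 0.12, 0.15 and 0.15. Nfkb2, a subunit of the noncanonical NF-kappa B pathway, averaged 100.4 CPM in control cTEC, 154 in Cre cTEC, 419 in control mTEC and 367 in Cre mTEC. Celsr1, an adhesion receptor of planar cell polarity, followed the same order at 42.2, 67.1, 152 and 135 CPM. None of the other 9 class I genes lay so near to Nlrc5, the closest being B2m at 0.44 and the farthest Erap1 at 1.12. The measure is not scaled to the size of a gene's changes. Genes that moved in the same direction by less, such as B2m and H2-K1 between the cell types, therefore also lie apart from Nlrc5. The 12 libraries share cell type as the main difference, so these measures describe that split first.

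Neither the light chain nor the heavy chains passed for the Cre effect in either cell type, and none reached an unadjusted p under 0.05. B2m, the light chain shared by classical class I molecules, was at 3166, 3325 and 2907 CPM in control cTEC, against 2945, 2920 and 3073 CPM in Cre cTEC. The groups overlapped, with a log2 fold change of -0.07 and a 95% interval of -0.35 to 0.20 (adjusted p = 0.868). H2-K1, the K heavy chain, was at 2873, 3060 and 2915 CPM in control cTEC, against 3066, 2736 and 3101 CPM in Cre cTEC (a log2 fold change of 0.01, interval -0.26 to 0.28). H2-D1, the D heavy chain, was at 3970, 3538 and 4024 CPM in control cTEC, against 3839, 3004 and 3699 CPM in Cre cTEC (-0.13, interval -0.41 to 0.15). The Cre libraries overlapped the controls for each of these genes. The upper ends of these intervals lie below the 0.56 at which the interval of Nlrc5 begins. In mTEC the Cre effects were -0.10 for B2m, -0.01 for H2-K1 and -0.11 for H2-D1, and none passed.

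Between the cell types, B2m and H2-K1 were higher in mTEC, and the call for H2-D1 depended on the method. In control mTEC, B2m was at 6170, 6210 and 6005 CPM, above all 3 control cTEC libraries (log2 fold change 0.97, SE 0.13, adjusted p = 4.79e-06). H2-K1 was at 4510, 4896 and 4685 CPM, also without overlap (0.67, SE 0.13, adjusted p = 0.000188). H2-D1 was at 4387, 4736 and 4334 CPM, which also lay above all 3 control cTEC libraries, but its log2 fold change of 0.22 (SE 0.13) gave an adjusted p of 0.163 with edgeR. H2-D1 passed with DESeq2 (adjusted p = 0.00598), weighted limma voom (0.019) and a stricter filter (0.0229), and did not with unweighted limma voom (0.0889). In Cre libraries the values were 0.94, 0.65 and 0.24, and the last did not pass with edgeR (adjusted p = 0.153) but did with DESeq2 (0.0184) and the stricter filter (0.0201). The ratio of the heavy chains, a description with no test, separated the cell types. Per kb, H2-D1 over H2-K1 was 1.16 ± 0.116 in control cTEC and 1.05 ± 0.0693 in Cre cTEC, against 0.851 ± 0.0232 in control mTEC and 0.796 ± 0.0557 in Cre mTEC (SD, n = 3). The lowest cTEC library, at 0.979, lay above the highest mTEC library, at 0.867. Whether the ratio is above 1 depends on the transcript length used, since H2-D1 came out above H2-K1 in all 4 groups per kb of merged exons. Of the 50-base windows of H2-K1, 8.11% occur in another gene, most of them in H2-D1, and of H2-D1 14.3%, most in H2-Q1. How the authors counted reads that fit several genes is not given in the sources used here, so the heavy chain levels are uncertain to that extent.

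Of the 17 other class I and class I-like heavy chains tested, H2-M2 rose in Cre cTEC and Hfe fell. H2-M2 was at 46.3, 45.1 and 49.2 CPM in control cTEC, against 88.1, 90.5 and 101 CPM in Cre cTEC, with no overlap (log2 fold change 0.99, SE 0.12, adjusted p = 4.51e-05). It was at 382 to 413 CPM in control mTEC and 298 to 408 CPM in Cre mTEC, so Nlrc5 and H2-M2 had the same order of group levels. Hfe, a class I-like regulator of iron uptake, was at 37.5 to 40.7 CPM in control cTEC and 25.9 to 29.0 CPM in Cre cTEC (-0.53, adjusted p = 0.0162). Hfe no longer passed without a filter on low counts, or when library 8, 9 or 10 was left out (adjusted p at most 0.0747). In Cre mTEC 1 of the 17 passed, H2-Q10, which fell from 27.0 to 32.7 CPM in controls to 10.8 to 18.2 CPM, without overlap (-1.08, SE 0.20, adjusted p = 0.00862). H2-Q10 was called by DESeq2 and limma voom too, and was lost without library 3 or 5 (adjusted p = 0.0539 and 0.078). In control mTEC against control cTEC, 9 of the 17 were higher, among them H2-M2 (3.09) and H2-Q7 (2.01), and 6 were lower, among them H2-T23 (-0.63), a Qa-1 heavy chain. Over all genes tested, 29.3% were higher and 30% lower. H2-M3, named after its values were seen because its promoter holds the spaced pair, did not pass with edgeR in any of the 5 comparisons, with values from -0.21 to 0.23, and weighted limma voom called it higher in mTEC among Cre libraries. Reads of near-identical heavy chain genes may be split between them.

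None of the 3 transport and loading genes was called by edgeR for the Cre effect in either cell type, although Tap2 had an unadjusted p of 0.0299 in cTEC. Tap1, which encodes one chain of the peptide transporter, was at 338, 352 and 370 CPM in control cTEC, against 464, 341 and 427 CPM in Cre cTEC. Tap2, its partner, was at 290, 333 and 300 CPM and 411, 312 and 388 CPM. Tapbp, which encodes tapasin, was at 797, 803 and 834 CPM and 929, 648 and 869 CPM. For each, Cre libraries 10 and 12 lay above all controls and library 11, the one with the fewest reads, lay inside or below the control range. The log2 fold changes were 0.22 for Tap1, 0.27 for Tap2 and 0.01 for Tapbp (adjusted p = 0.318, 0.183 and 0.989). Without library 11, Tap1 and Tap2 passed, at 0.32 and 0.36 (adjusted p = 0.0229 and 0.0142). With all libraries, limma voom with quality weights called both (adjusted p = 0.0447 and 0.0147), limma voom without weights called neither (0.315 and 0.175), and DESeq2 called Tap2 alone (0.0399).

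In mTEC these genes varied less: Tap1 was at 402 to 420 CPM in controls and 411 to 434 CPM in Cre, Tap2 at 285 to 306 and 276 to 294 CPM, and Tapbp at 764 to 856 and 681 to 696 CPM. Tapbp did not overlap between the genotypes there, but its log2 fold change of -0.21 (SE 0.13) gave an adjusted p of 0.484. Tap2 was lower in Cre mTEC than in Cre cTEC by a log2 fold change of -0.37 (with SE 0.11 and adjusted p = 0.0113). Tap2 no longer passed when library 6, 10 or 12 was left out (adjusted p at most 0.052) and without a filter on low counts (0.164). In control libraries the same comparison gave -0.06, and the difference of 0.31 between the cell types in the Cre effect did not pass (adjusted p = 0.363). None of the 9 further genes of peptide loading and folding in the endoplasmic reticulum was called in Cre cTEC with edgeR (1 with an unadjusted p under 0.05), DESeq2 or limma voom. In Cre mTEC edgeR and unweighted limma voom called 0 of the 9 (2 with an unadjusted p under 0.05 in edgeR). DESeq2 and weighted limma voom called 1 there, Calr. It was at 1148 to 1390 CPM in control mTEC and lower in Cre mTEC, at 921 to 1068 CPM, without overlap. In control mTEC against control cTEC 5 of those 9 were higher, including the chaperones Calr (0.68) and Hsp90b1 (0.68), and 1 was lower. The shares over all genes tested were 29.3% and 30%.

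**Figure D3:**
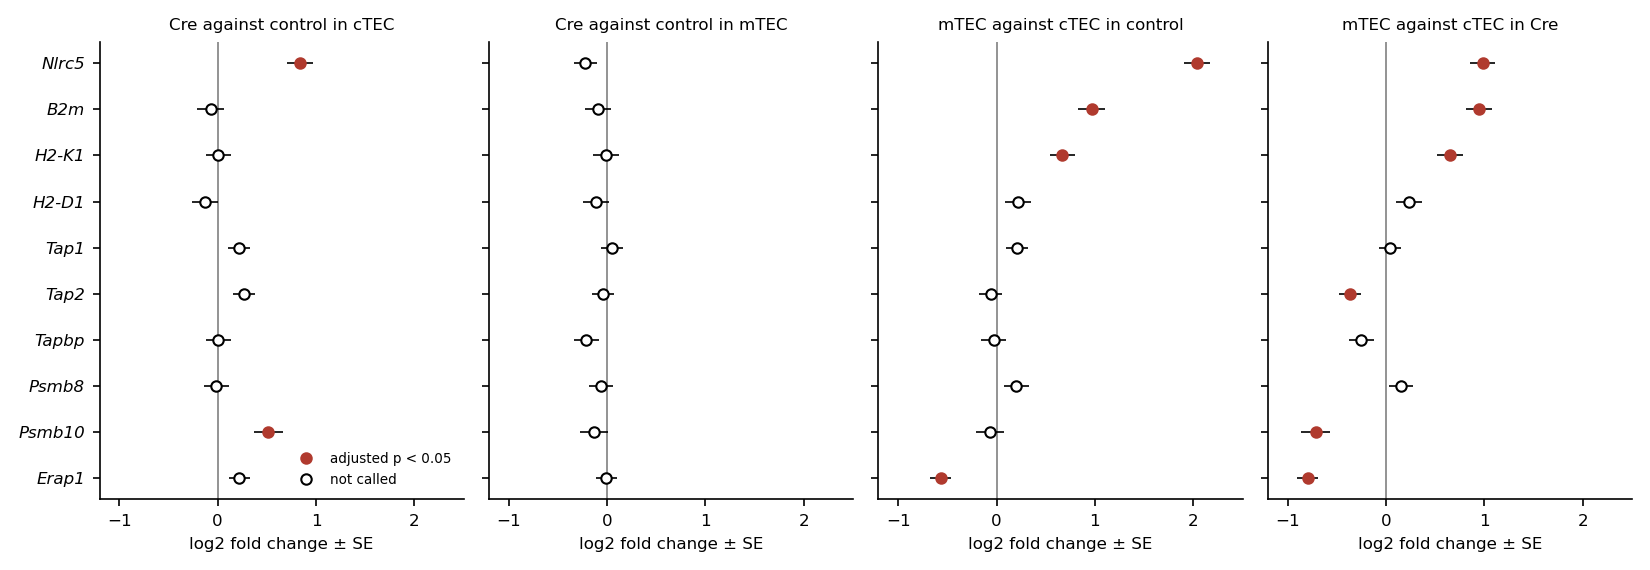
Log2 fold change with SE of each gene in 4 comparisons, from the fit to 12 libraries; filled points passed at an adjusted p under 0.05. Nlrc5 and Psmb10 are filled in the cTEC genotype comparison, no gene in the mTEC one, and the cell type comparisons place Nlrc5, B2m and H2-K1 to the right and Erap1 to the left.

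The immunoproteasome subunits differed from each other. Psmb10, which takes the beta2 place in the immunoproteasome, was at 185, 243 and 233 CPM in control cTEC, against 373, 231 and 340 CPM in Cre cTEC. Libraries 10 and 12 lay above the controls and library 11 inside their range, with a log2 fold change of 0.51 (with SE 0.15 and adjusted p = 0.0302). Psmb10 no longer passed when the 6 cTEC libraries were fitted by themselves (adjusted p = 0.0595) or when library 7, 9, 10 or 12 was left out (0.0658 to 0.151). Without library 11 the value was 0.68 (adjusted p = 0.000404). Psmb8, which takes the beta5 place, was at 167, 181 and 218 CPM in control cTEC, against 196, 154 and 209 CPM in Cre cTEC. The ranges of Psmb8 overlapped, with library 11 below all controls (log2 fold change -0.01, interval -0.28 to 0.25). In mTEC the Cre effects were -0.13 for Psmb10 and -0.06 for Psmb8, with overlap for each.

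Psmb10 was lower in mTEC than in cTEC among Cre libraries (log2 fold change -0.71, SE 0.15, adjusted p = 0.000425), at 184 to 206 CPM against 231 to 373 CPM. Among controls it was at 205 to 215 against 185 to 243 CPM (-0.07, adjusted p = 0.704). The difference of its Cre effects between the cell types was 0.65 (SE 0.21, adjusted p = 0.0922) and did not pass. It passed with DESeq2's size factors, DESeq2, weighted limma voom, no filter, a stricter filter and without library 11 (adjusted p = 0.00181 to 0.049). Psmb11, the thymoproteasome beta5 subunit of cTEC, was high in the same pair of libraries, at 993, 370 and 721 CPM in Cre cTEC against 253, 434 and 370 CPM in control cTEC. Its log2 fold change was 0.98 (SE 0.29, adjusted p = 0.0363), which did not pass with the robust fit, with DESeq2 or when library 7, 9, 10 or 12 was left out (adjusted p at most 0.217). Of the 9 cTEC markers, Psmb11 included, 6 rose in Cre cTEC with edgeR and none fell, against 5.62% and 3.38% of all genes. The median log2 fold change of the 9 was 0.94, and DESeq2 called 4. Among them were Tbata (1.16), the Notch ligand Dll4 (1.16), the endocytic receptor Ly75 (0.99) and the thymus protease Prss16 (0.94). They summed to 5336 to 6802 CPM in control cTEC and 5979 to 15051 CPM in Cre cTEC, with library 11 lowest of the Cre libraries and inside the control range. The part of the cTEC marker level in the Psmb10 and Nlrc5 values was not tested.

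**Figure D4:**
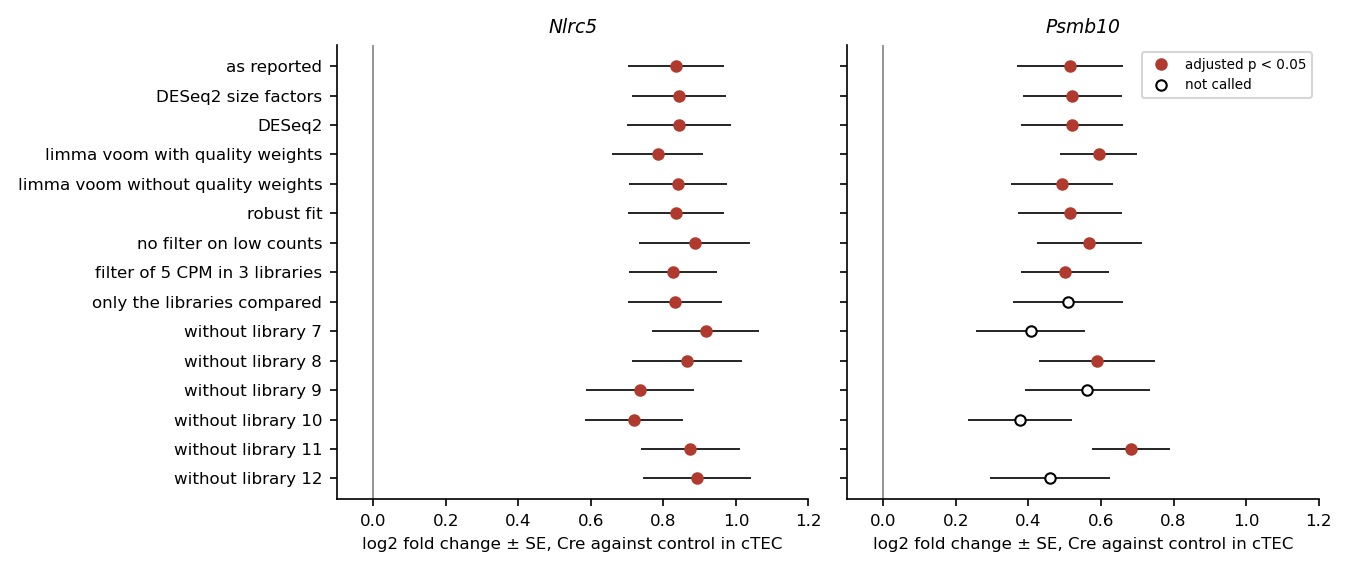
Log2 fold change with SE of Nlrc5 and Psmb10 in Cre against control cTEC, under each alternative setting; filled points passed at an adjusted p under 0.05. Nlrc5 passes in every setting shown and Psmb10 fails in 5 of them.

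Each catalytic place of the proteasome can hold alternative subunits, so the share of each was computed from counts divided by the longest transcript length. In the beta5 place, Psmb8 made up 48.5%, 38.9% and 47.6% in control cTEC and 26.9%, 40.5% and 33.6% in Cre cTEC, with Psmb11 at 33.0%, 41.9% and 36.4% and at 61.2%, 43.7% and 52.1%. The Psmb8 shares overlapped through library 11, and the Psmb11 shares did not overlap. In mTEC, Psmb8 made up 71.6% ± 0.418 in controls and 71.4% ± 0.726 in Cre (SD, n = 3), and Psmb11 2.60% ± 0.327 and 3.55% ± 1.95. In the beta2 place, Psmb10 made up 88.4% to 90.0% in control cTEC and 90.9% to 92.8% in Cre cTEC, without overlap. It made up 85.0% to 85.7% in control mTEC and 84.2% to 85.0% in Cre mTEC. The shares are descriptions with no test, and their size depends on the lengths used.

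The constitutive subunit Psmb5 shares 57.1% of its 50-base windows with other genes, so its part of the beta5 place is uncertain. Psmb9, the beta1 subunit of the immunoproteasome, had 1 read in control cTEC library 8 and 0 in the other 11 libraries. In the annotation at hand Psmb9 overlaps Tap1, and the treatment of such reads by the authors is not given in the sources used here, so no beta1 share is described.

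**Figure D5:**
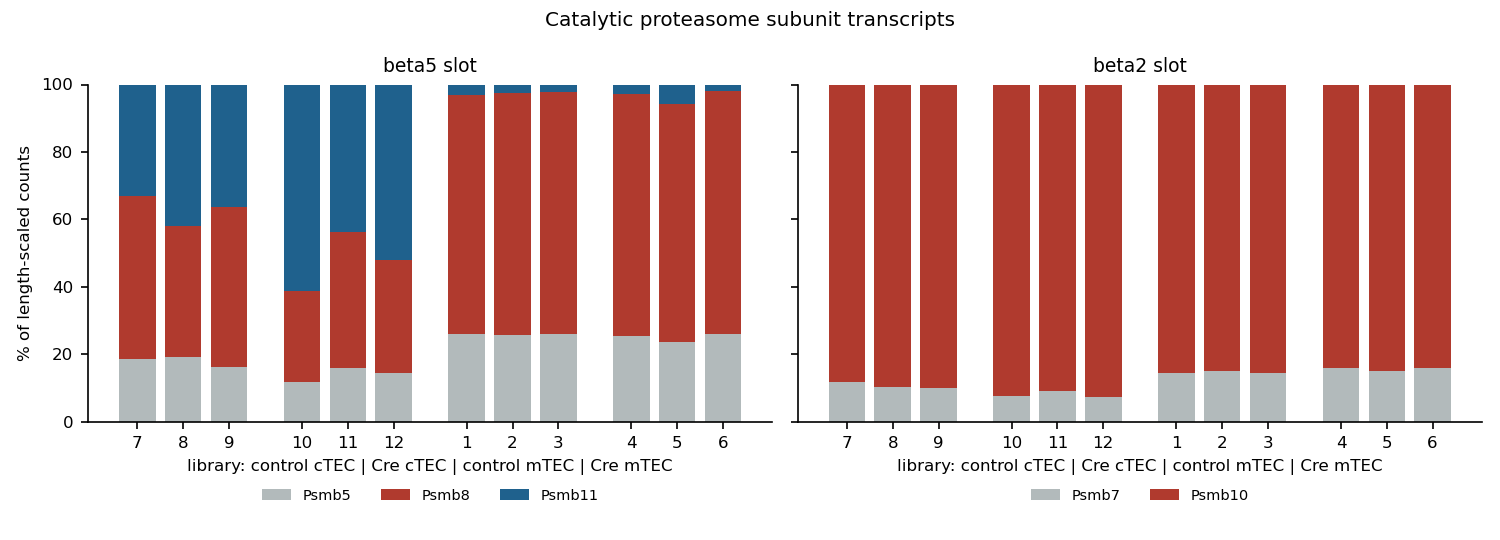
Share of the length-scaled counts of each catalytic place, in percent, taken by each alternative subunit, 1 bar per library. In the beta5 place Psmb11 takes 33.0% to 61.2% in cTEC and under 6% in mTEC, where Psmb8 takes about 71%; in the beta2 place Psmb10 takes over 84% in all libraries.

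Psme1 and Psme2, the subunits of the PA28 activator that opens the proteasome, did not pass in Cre cTEC (log2 fold changes -0.25 and -0.08). Both were higher in mTEC than in cTEC, by 0.74 and 0.81 in controls (adjusted p = 3.62e-05 and 3.1e-06) and by 0.93 and 0.72 in Cre libraries. None of 11 other 20S proteasome subunits was called in Cre cTEC with edgeR or DESeq2, 1 had an unadjusted p under 0.05, and weighted limma voom called 1, Psmb4. Of 7 assembly factors and other activators, Psme4, the PA200 activator, rose in Cre cTEC (0.67, SE 0.13, adjusted p = 0.00167), from 36.5 to 37.3 CPM in controls to 47.7 to 66.4 CPM.

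Erap1, the aminopeptidase of the endoplasmic reticulum, was lower in mTEC than in cTEC in both genotypes. It was at 231, 222 and 224 CPM in control cTEC, against 169, 148 and 141 CPM in control mTEC, without overlap (log2 fold change -0.57, SE 0.11, adjusted p = 0.000161). In Cre libraries the levels were 287, 238 and 262 CPM in cTEC and 147, 162 and 145 CPM in mTEC (-0.80, SE 0.11, adjusted p = 4.48e-06). All 3 Cre cTEC libraries lay above all 3 controls, but the log2 fold change of 0.22 (SE 0.11) gave an adjusted p of 0.258. In mTEC the Cre effect was -0.01 (adjusted p = 0.985).

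Among the members, H2-D1 and Psmb8 lay nearest to each other over the 12 libraries, with a root mean square difference of 0.10 in centred log2 CPM. The measure is not scaled to a gene's spread, so genes that vary little lie near each other whatever their pattern. Tap1 and Psmb8 followed at 0.13, Tap2 and Tapbp at 0.14, Tap2 and Psmb10 at 0.15, and B2m and H2-K1 at 0.16. Of the 10 genes, 6 lie on chromosome 17 (H2-K1, H2-D1, Tap1, Tap2, Tapbp and Psmb8), and Nlrc5 and Psmb10, the pair called in Cre cTEC, both lie on chromosome 8. Among all genes, B2m lay nearest to Csnk2b (0.09), Rap2a, Btg1 and Zbp1, and Psmb8 to Asl (0.07), Arl6ip6, Tm2d1 and Fam125a.

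Of 17 other regulators of class I genes, Irf8, an interferon regulatory factor best known in myeloid cells, was the one that edgeR called in Cre cTEC, where it rose. Control cTEC had 106, 105 and 113 CPM of it and Cre cTEC 209, 127 and 187 CPM, without overlap (log2 fold change 0.70, SE 0.15, adjusted p = 0.00418). In control mTEC it was at 247 to 301 CPM, higher than in control cTEC by 1.37 (SE 0.15, adjusted p = 1.82e-07). DESeq2 also called Irf7 lower in Cre cTEC, and edgeR and limma voom did not. Irf7 was at 474 to 481 CPM in control cTEC and 356 to 432 CPM in Cre cTEC, without overlap. Irf1 and Nfkb1 did not pass in Cre cTEC, with log2 fold changes of 0.23 and 0.07. Both were lower in control mTEC than in control cTEC, at -0.35 and -1.99, the opposite direction from Nlrc5, B2m and H2-K1. In all, 5 of the 17 were higher and 6 lower in that comparison, near the 29.3% and 30% of all genes. None of 9 interferon receptor and kinase genes was called by edgeR in Cre cTEC or Cre mTEC (2 and 1 with an unadjusted p under 0.05). DESeq2 called 0 in each, and weighted limma voom called 1, Jak2, in Cre cTEC. Both chains of the interferon gamma receptor were higher in control mTEC, Ifngr1 by 0.78 and Ifngr2 by 1.54 (adjusted p = 5.73e-06 and 2.16e-09).

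Some members overlap another gene in the annotation at hand, among them Nlrc5 with 9330175E14Rik, B2m with Patl2, Erap1 with Cast and Psmb10 with Gm16156. The library kit does not mark strand, so reads of such partners cannot be told apart where they overlap.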

How the data were processed

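The authors deposited 1 table of raw counts of reads per gene symbol for 12 libraries. Per the labels' protocols, cells were sorted into lysis buffer and the SMARTer Low Input kit, used for the libraries, does not mark strand. Tools were STAR, HTSeq and edgeR on build mm9, per the submitters' processing notes. Not given in the sources used here: versions, annotation, strand setting and treatment of ambiguous reads.

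The deposited counts were tested with edgeR 4.0.16 in R 4.3.3 (quasi-likelihood, two-sided, TMM, filterByExpr), in 1 fit of 4 groups of 3 with 8 residual degrees of freedom, adjusted by Benjamini-Hochberg over 17268 genes, threshold 0.05, for 5 comparisons. Interval percent was 95. CPM uses library totals scaled by TMM. Alternatives were DESeq2 1.42.0, its size factors, limma voom 3.58.1 with quality weights for the libraries, a robust fit, 2 filters, a fit to just the libraries compared and leaving out each library in turn. Limma voom without weights was added after seeing the data. Transcript lengths, overlaps and shared 50-base windows come from GENCODE M21 on GRCm38, and promoters from RefSeq. The model was tested on simulated data.

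Named were all members, up to 4 genes per list with the smallest p, and the 4 nearest genes of Nlrc5, B2m and Psmb8. Members and lists were chosen with earlier results of these data known. Irf1, Nfkb1 in Cre cTEC, Fezf2, Epcam, Psmb4, Jak2, H2-T23 and H2-M3 were added once their values had been seen. So were Irf7, Calr, Ciita, Ctsl, H2-DMb1, H2-Oa and Cd74 for the genotype. No library number is shared between groups, so none were paired.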

Additional observations from a re-analysis of the deposited data

Results flagged for a closer look

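The Cre effect in cTEC minus that in mTEC was tested for every gene, and 7 of the 106 tested genes of the class I, proteasome, peptidase, class II, regulator and interferon receptor lists passed (edgeR, adjusted p under 0.05), against 4.01% of all genes. Nlrc5 differed by 1.05 (adjusted p = 0.00263), H2-M2 by 1.17 (0.00108) and Irf8 by 1.07 (0.00613), each toward a higher effect in cTEC, and these calls held under every alternative run. Psme4 differed by 0.72 (adjusted p = 0.0218), lost with weighted limma voom and without library 1, 3, 7 or 9 (up to 0.0681). H2-Oa, a chain of the class II peptide editor inhibitor, differed by 0.92 (0.0203), lost without library 3, 5, 7 or 9 (up to 0.0656). Fcgrt, the neonatal Fc receptor, differed by -0.81 (0.0268), lost without library 1, 3, 4, 5, 7 or 9 (up to 0.104). Ifnar2, an interferon receptor chain, differed by -0.54 (0.0491), lost without a filter on low counts, with DESeq2's size factors and when any library but 6, 8 or 11 was left out (adjusted p up to 0.264).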

How the results depend on the processing

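The count of members called in Cre cTEC was 2, and was 3 with DESeq2 (Tap2 added), 4 with limma voom with quality weights, 1 with only the libraries compared, and 1 to 4 with a library left out (4 without library 11). Over all 17268 genes there, edgeR called 971 higher and 584 lower, DESeq2 called 1837 and weighted limma voom 2193. The fit to only the libraries compared called 1274 of 14928 genes, and the fit without library 11 called 2294 of 17547. The count for the difference of Cre effects was 1, and was 2 with DESeq2's size factors, DESeq2, weighted limma voom, no filter or the stricter filter of 5 CPM in 3 libraries, and 1 to 3 with a library left out (3 without library 11, with Psmb10 and Tap2 added). Over all 17268 genes, edgeR called 692, DESeq2's size factors gave 783, DESeq2 1131 and weighted limma voom 1398. With no filter 1140 of 31332 genes were called, with the stricter one 924 of 13237, and without library 11 1644 of 17547. The count for mTEC against cTEC in controls was 4, and 6 with DESeq2 or weighted limma voom, where H2-D1 and Tap1 also passed, 6 with no filter, 5 with DESeq2's size factors or only the libraries compared, and 7 with the stricter filter, where H2-D1, Tap1 and Psmb8 also passed. Over all 17268 genes, edgeR called 5052 higher and 5179 lower, DESeq2 9785, its size factors 10130 and weighted limma voom 11497. With no filter 10037 of 31332 genes were called, with only the libraries compared 10798 of 16150, and with the stricter filter 8858 of 13237. Limma voom without weights, chosen after seeing the data, gave the same 5 counts of members as edgeR. No member was called in Cre mTEC under any alternative run. Over all genes tested there, the alternatives called from 78 genes (without library 1) to 1672 (weighted limma voom).

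Values that changed sign were uncalled and near 0. In Cre cTEC they were Tapbp (-0.00445 with the stricter filter, -0.0115 with unweighted voom) and Psmb8 (0.0929 with weighted voom, 0.0329 with no filter), and with a library left out H2-K1 ran from -0.0225 to 0.0536, Tapbp from -0.0956 to 0.14 and Psmb8 from -0.10 to 0.11. In Cre mTEC they were H2-K1 (0.00332) and Erap1 (0.00339) with only the libraries compared and Erap1 (0.0453) with weighted voom, and with a library left out H2-K1 ran from -0.12 to 0.0355, Tap1 from -0.0108 to 0.0669 and Erap1 from -0.0691 to 0.0691. For the difference, H2-D1 was 0.0317 with DESeq2's size factors, 0.0318 with DESeq2, 0.0398 with weighted voom and 0.0661 with no filter, and with a library left out B2m ran from -0.0344 to 0.17, H2-K1 from -0.0234 to 0.14, H2-D1 from -0.0798 to 0.11 and Psmb8 from -0.0368 to 0.19. In control mTEC against control cTEC, Tap2 was 0.11 with no filter and 0.00775 with the stricter one, Tapbp 0.0261 with DESeq2's size factors, 0.0261 with DESeq2, 0.14 with no filter, 0.0381 with the stricter filter and 0.000613 with only the libraries compared, and Psmb10 0.10 and 0.000836 with no filter and the stricter one. With a library left out Tap2 ran from -0.0796 to 0.0447, Tapbp from -0.0813 to 0.00684 and Psmb10 from -0.13 to 0.051, and in Cre libraries Tap1 from -0.0509 to 0.14.

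The shares move with the lengths used. Psmb8 made up 33.4%, 24.02%, 59.0% and 58.8% of the beta5 place per merged exon length and 33.2%, 21.8%, 80.0% and 78.4% with no length, in control cTEC, Cre cTEC, control mTEC and Cre mTEC, and 74.7% and 74.5% in the mTEC groups per longest protein-coding transcript, an alternative chosen after seeing the data. Psmb10 made up 79.4%, 84.2%, 73.0% and 71.5% of the beta2 place with no length, 77.4%, 82.5%, 70.5% and 68.9% per longest protein-coding transcript, and 84.4% and 83.4% in control and Cre mTEC per merged exon length. No paired analysis was possible because the groups share no replicate numbers. With 3 libraries a group, and as few as 190 reads for Nlrc5, small differences may have been missed. The smallest difference that could be detected was not computed.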

Other observations

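Class II presentation genes differed between the cell types in both directions. Of 12 class II genes, 6 were higher in control mTEC than in control cTEC and 3 were lower, against 29.3% and 30% of all genes tested. Ctss, a protease that trims the invariant chain, was higher by a log2 fold change of 3.37, Ifi30, a thiol reductase of antigen processing, by 2.35, and H2-Oa and H2-Ob by 1.92 and 1.86. In Cre cTEC, Ifi30 rose (0.54, adjusted p = 0.0213), a call that fails when the cTEC libraries are fitted by themselves and when library 7, 9, 10 or 12 is left out (adjusted p at most 0.153). It was the one of the 12 that edgeR called there, while DESeq2 called 4 higher (Ciita, Ctsl, H2-Oa and Ifi30) and 1 lower (H2-DMb1), limma voom with quality weights the same 4 higher, and limma voom without weights Ciita and Ifi30. In Cre mTEC, H2-Ob fell (-0.65, adjusted p = 0.0172), lost without library 1, 2, 3, 4 or 5 (up to 0.144), and DESeq2 called 3 lower there (H2-Ob, H2-Oa and Cd74).

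Of 8 cytosolic and endosomal peptidases that trim or destroy peptides, 4 were higher in control mTEC than in control cTEC, opposite to Erap1: Tpp2 by 0.48, Nln by 0.55, Lnpep by 0.51 and Nrd1 by 0.37. Over all genes tested, 29.3% were higher there. None of the 8 was called for the Cre effect in either cell type, and none had an unadjusted p under 0.05 there (edgeR). DESeq2 and limma voom called 0 of them as well.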
